A study of Mus musculus with 8 samples.

Results

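The 47 genes described here encode the machinery that drives a cell through the division cycle and copies its DNA. They were taken from a fixed list of cell cycle, replication and mitosis symbols, matched through Entrez identifiers to the 27179 genes of the count table, and all 47 were found. In the study, RNA was sequenced from sorted bone marrow B-lymphoid progenitors of mice aged 7 to 10 weeks. Control Erg fl/fl mice, which carry floxed Erg alleles and no Cre transgene, gave pre-proB, proB and preB cells, successive stages of B-cell development. Rag1Cre T/+;Erg Δ/Δ mice (Erg Δ/Δ below), in which Cre is expressed from the common lymphoid progenitor onward and removes Erg, an ETS-family transcription factor, gave pre-proB cells alone. Each of the 4 groups holds 2 libraries, and the populations were sorted from 2 mice of each genotype, so the 3 control stages may share animals. Because the Cre transgene is present only in the Erg Δ/Δ animals, its own effect and that of Erg loss cannot be told apart in these libraries. The paper reports no significant difference in B-lymphoid cell populations between Rag1Cre T/+ mice and mice without the transgene. No library from Rag1Cre T/+ mice with intact Erg was among those used here.

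Entry into the cell cycle is set by D cyclins, which pair with Cdk4 and Cdk6 and phosphorylate the retinoblastoma family of pocket proteins, and is held back by CDK inhibitors such as p27, the product of Cdkn1b. Phosphorylated pocket proteins release E2F factors, which switch on genes for replication; the MCM helicase is then loaded at origins, activated by Cdc45 and the GINS complex, and followed by the polymerases, while B cyclins with Cdk1 carry the cell into mitosis. In the bone marrow, proB cells divide in response to interleukin-7, early preB cells divide under the pre-B cell receptor, and late preB cells leave the cycle while light chain genes recombine.

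Libraries held between 15565381 and 18457632 assigned counts, so that 3 counts corresponded to 0.154 to 0.194 CPM (counts scaled to library size, with factors from the trimmed mean of M-values). Erg itself was at 69.1 and 25.3 CPM in control pre-proB libraries and at 2.5 and 2.58 CPM in Erg Δ/Δ libraries. The 5 B-lineage markers used (Cd79a, Ebf1, Pax5, Vpreb1, Igll1) summed to 692 and 238 CPM in control pre-proB, 2237 to 2327 CPM in proB, 1944 to 2211 CPM in preB and 5.75 and 9.04 CPM in Erg Δ/Δ libraries. Vpreb1 was at 60.4 and 98.7 CPM in preB against 436 and 404 CPM in proB. Igll1 was at 103 and 155 CPM in preB against 685 and 621 CPM in proB. Cd79a, Ebf1 and Pax5 were higher in both preB libraries than in proB. Cd79a, at 1246 and 1396 CPM, made up most of the preB sum. Plasmacytoid dendritic-like markers (Siglech, Bst2, Tcf4, Ccr9, Spib, Irf8) stood at 12517 and 13505 CPM in control pre-proB and 14275 and 14970 CPM in Erg Δ/Δ libraries, against 1223 to 1281 CPM in proB and 2768 to 2790 CPM in preB, with none of the 6 at 0 in any library, although CD11c+ cells were gated out. Spib, which B-lineage cells also express, went the other way from the rest of that list, at 2368 and 2378 CPM in preB against 1303 and 1390 CPM in control pre-proB, and made up most of the preB sum. The other 5 were higher in every pre-proB library than in any proB or preB library. In bulk RNA, fewer cells of a type and less RNA per cell cannot be told apart. Early progenitor markers (Flt3, Kit, Il7r, Cd34, Ly6a) summed to 536 to 1589 CPM, with the pre-proB libraries above the rest. Il7r went the other way, at 669 and 583 CPM in preB against 414 and 416 CPM in control pre-proB. It made up most of the preB sum. Kit was at 31.1 and 38.6 CPM in proB against 28.2 and 22.9 CPM in control pre-proB. Flt3, Cd34 and Ly6a were higher in every pre-proB library than in any proB or preB library. The proB list summed to 239 to 1992 CPM with proB highest, and the preB list to 51.5 to 1127 CPM with preB highest. The NK-like list ran from 198 to 357 CPM in the pre-proB libraries and from 5.46 to 14.2 CPM elsewhere, although NK1.1+ cells were gated out. Most of its control pre-proB sum was Klrd1, at 174 CPM in both libraries. T-like sums lay between 29.6 and 134 CPM, myeloid-like sums between 29.4 and 336 CPM (highest in proB replicate 2), erythroid-like sums between 2.12 and 20.4 CPM for the 5 of 6 markers matched, and plasma cell-like sums between 139 and 647 CPM. The part of these other markers in the results below was not tested.

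The first question was how the cycle genes move along normal development. From pre-proB to proB, 45 of the 47 members rose and 1 fell, and the median member gained 1.96 on the log2 scale, against 0.00 for the 13650 genes tested (edgeR's quasi-likelihood test over the 6 control libraries, Benjamini-Hochberg adjusted p below 0.05). Of all genes tested, 73.0% were called in that comparison, 36.2% rising and 36.8% falling. From proB to preB, 42 members fell and 3 rose, with a median of -0.61 against 0.00, where 58.9% of all genes were called, 29.9% falling and 29.0% rising. Net of both steps, 44 members were higher in preB than in pre-proB and 2 were lower, with a median of 1.34 against 0.04, where 70.7% of all genes were called, 36.5% higher and 34.1% lower. Both proB libraries lay above the other 4 control libraries for 42 members, a pattern seen in 24.0% of all genes tested. All 47 members passed the filter on low values in both fits, so none was lost.

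The D cyclins, which open the cycle, changed places between stages. Ccnd1 (chr7:144929931-144939831, GRCm38.p6) was at 599 and 746 CPM in pre-proB, 12.3 and 15.8 CPM in proB and 5.81 and 6.87 CPM in preB libraries. No group overlapped another, and the last values rest on 100 and 122 counts. Ccnd1 fell by 5.54 on the log2 scale from pre-proB to proB (SE 0.158, edgeR adjusted p = 1.6e-08) and by a further 1.14 to preB (SE 0.193, adjusted p = 0.00116). It was the only one of the 47 members to fall at the first step.

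Ccnd2 (chr6:127125162-127152188) took the form of a peak, at 74.7 and 72.9 CPM in pre-proB, 261 and 264 CPM in proB and 66.8 and 70.0 CPM in preB libraries. It rose by 1.86 (SE 0.0593, edgeR adjusted p = 2.79e-08) and fell by 1.93 on the log2 scale (SE 0.0593, adjusted p = 1.19e-06). Of the 47 members it kept the lowest share of its proB level in preB, 26.1%, and its preB and pre-proB levels differed by -0.07 (95% interval -0.21 to 0.07, edgeR adjusted p = 0.342). Ccnd3 (chr17:47505051-47599689), the D cyclin known to be needed for preB expansion, was at 224 and 243 CPM, then 917 and 963 CPM, then 580 and 593 CPM. It rose by 2.04 (SE 0.0770, edgeR adjusted p = 6.73e-08) and fell by 0.67 on the log2 scale (SE 0.0740, adjusted p = 0.00011), keeping 62.4% of its proB level.

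Scaled to length, with the union of GENCODE exons as gene length, Ccnd1 made up 79.2% and 81.7% of summed D cyclin FPKM (CPM per kilobase of gene length) in the pre-proB libraries. In proB its share was 1.94% and 2.38%, and Ccnd3 made up 77.5% and 77.7%, with Ccnd2 at 20.5% and 19.9%. In preB, Ccnd3 reached 88.8% and 88.4% and Ccnd2 was at 9.54% and 9.73%. The order within each stage was the same with the length of the longest transcript, a choice added after seeing the data, which put Ccnd1 at 69.6% and 72.8% in pre-proB and Ccnd3 at 84.2% and 84.5% in proB. Summed D cyclin FPKM was 161 and 194 at the pre-proB stage, then 135 and 141, and last 74.4 and 76.4 in preB. The direction of the first step depended on the length used, since with the longest transcript the sums were 230 and 274 in pre-proB, then 282 and 295, and last 162 and 166. With either length the preB sums were the lowest.

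Both kinase partners of the D cyclins were highest in proB. Cdk4 was at 153 and 158 CPM in pre-proB, 342 and 362 CPM in proB and 176 and 189 CPM in preB libraries, and Cdk6 at 18.4 and 13.7 CPM, then 33.6 and 38.7 CPM, then 10.7 and 9.92 CPM. Each rose by 1.21 on the log2 scale at the first step (SE 0.0692 for Cdk4 and 0.142 for Cdk6). At the second step Cdk4 fell by 0.94 and Cdk6 by 1.8 (edgeR adjusted p = 1.47e-05 and 2.38e-05). Cdk6 ended below its pre-proB level, by -0.59 (SE 0.155, edgeR adjusted p = 0.00802); without preB replicate 2 that difference was -0.57 with an adjusted p of 0.0622.

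Of the 4 inhibitors and pocket proteins, the brakes of the cycle, Cdkn1b and Rb1 rose from proB to preB. Cdkn1b, which encodes the inhibitor p27, was at 122 and 107 CPM in pre-proB, 125 and 116 CPM in proB and 234 and 243 CPM in preB libraries. The first 2 groups overlapped (log2 difference 0.10, 95% interval -0.07 to 0.28, edgeR adjusted p = 0.246), and Cdkn1b then rose by 1.00 (SE 0.0748, adjusted p = 1.66e-05), a 1.98-fold higher level in preB. Rb1, the retinoblastoma protein, rose at both steps, from 98.2 and 103 CPM to 159 and 151 CPM and then to 247 and 227 CPM. Its gains were 0.66 (SE 0.0673, edgeR adjusted p = 2.82e-05) and 0.62 (SE 0.0657, adjusted p = 9.24e-05).

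The other pair in this group did not share that late rise. Rbl1, which encodes the pocket protein p107 and is itself an E2F target, went from 88.9 and 107 CPM to 231 and 228 CPM and then to 179 and 165 CPM, rising by 1.26 and falling by 0.41 (edgeR adjusted p = 3.13e-06 and 0.00425). Cdkn2c, which encodes the Cdk4 and Cdk6 inhibitor p18, rose from 42.2 and 39.9 CPM to 70.9 and 67.0 CPM (log2 0.78, SE 0.0640, edgeR adjusted p = 6.7e-06). At 65.6 and 64.7 CPM in preB it lay just below proB, a difference of -0.07 (95% interval -0.22 to 0.07, edgeR adjusted p = 0.323).

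**Figure D1:**
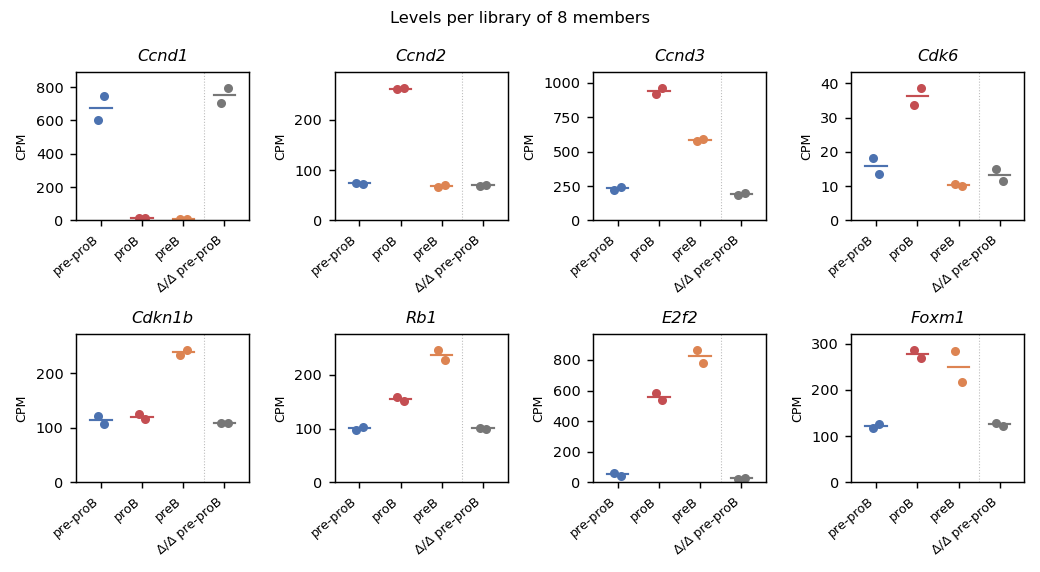
Points give CPM in each library, short lines the mean of the 2 libraries, with the 3 control stages left of the dotted line and Erg Δ/Δ pre-proB cells right of it. Ccnd1 is high in both pre-proB groups and near the axis afterwards, Ccnd2 and Cdk6 peak in proB, Cdkn1b, Rb1 and E2f2 are highest in preB, and the proB and preB points of Foxm1 overlap.

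E2F factors bind the promoters of replication genes. E2f2 (chr4:136172274-136196057), counted among the activating E2Fs, had the largest rise of the 47 members, from 60.9 and 44.2 CPM in pre-proB to 582 and 536 CPM in proB. The rise was 3.45 on the log2 scale (SE 0.142, edgeR adjusted p = 1.1e-07), or 10.6-fold. It continued to 866 and 782 CPM in preB (0.57, SE 0.125, edgeR adjusted p = 0.00468), a step that no longer passed without proB replicate 2 (0.49, adjusted p = 0.055). Its 2 relatives followed the proB peak instead. E2f1, also an activator, was at 39.2 and 46.3 CPM, then 82.6 and 82.7 CPM, then 67.7 and 58.8 CPM, and E2f8, a repressor, at 50.8 and 58.6 CPM, then 214 and 195 CPM, then 178 and 143 CPM. They rose by 0.98 and 1.93 and then fell by 0.38 and 0.34 (edgeR adjusted p for the falls 0.00745 and 0.0240). The fall of E2f8 was lost without proB replicate 1 (-0.29, adjusted p = 0.122) or without preB replicate 2 (-0.24, adjusted p = 0.0679).

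Promoter sequence was available for 36 of the 47 members in RefSeq windows (GRCm38.p6) of 250 bases before and 50 after each annotated start. They were searched on both strands for the E2F letters TTTCCCGC or TTTGGCGC, for TTTGAA, the letters of the cell cycle genes homology region (CHR), and for CCAAT, the letters bound by NF-Y. E2f2 is shown because its course departed from the other E2Fs. The 150 bases before each of its 2 annotated starts, on the plus strand, are given with any of these letters in capitals, on either strand.
E2f2 first start, chr4:136172124-136172273: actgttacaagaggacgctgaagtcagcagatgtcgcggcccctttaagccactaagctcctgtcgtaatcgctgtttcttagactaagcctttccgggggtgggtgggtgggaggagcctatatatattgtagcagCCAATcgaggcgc
E2f2 second start, chr4:136180632-136180781: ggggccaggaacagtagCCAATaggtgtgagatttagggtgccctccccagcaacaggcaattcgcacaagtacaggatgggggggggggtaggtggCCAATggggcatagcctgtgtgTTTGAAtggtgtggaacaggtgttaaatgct
The first holds CCAAT at -13, counted from the start, and the second CCAAT at -133 and -53 and TTTGAA at -31. The E2F letters were found once in the first window, at base 40 of the transcript. Over all 27025 genes with a window, 1.8% held the E2F letters, 20.2% TTTGAA and 41.1% CCAAT. A match is a description of letters and not a bound site.

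The cyclins that bridge G1 and S phase and their kinase rose together. Ccna2, cyclin A, which acts in S phase and G2, went from 94.8 and 106 CPM to 537 and 525 CPM and then to 396 and 348 CPM. It rose by 2.43 (SE 0.0902, edgeR adjusted p = 6.1e-08) and fell by 0.51 (SE 0.0844, adjusted p = 0.00108). The E cyclins, which start S phase, were lower in level: Ccne1 was at 11.7 and 14.5 CPM, then 50.8 and 48.7 CPM, then 33.9 and 32.0 CPM. Ccne2 was at 7.44 and 10.2 CPM, then 39.1 and 40.1 CPM, then 28.1 and 28.4 CPM. Their rises were 1.96 and 2.20 and their falls 0.59 and 0.48 on the log2 scale. Cdk2, which pairs with E and A cyclins, moved less, from 81.5 and 85.1 CPM to 194 and 183 CPM and then to 166 and 152 CPM, and kept 84.3% of its proB level (fall of 0.24, SE 0.0658, edgeR adjusted p = 0.0134). The falls of Ccne2 and Cdk2 did not pass without preB replicate 1 (adjusted p = 0.0515) and without proB replicate 1 (adjusted p = 0.0890).

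All 9 origin licensing genes rose to proB and fell to preB, and they did so by similar amounts. The 6 MCM genes encode the ring of the replicative helicase and are needed in equal numbers. Mcm6, the most abundant of them in CPM in proB, was at 207 and 223 CPM in pre-proB, 676 and 697 CPM in proB and 349 and 348 CPM in preB libraries. Mcm5 was at 132 and 148 CPM, then 573 and 575 CPM, then 323 and 309 CPM. In both genes the libraries of a stage lay closer to each other than to any other stage. Mcm2 was at 102 and 109 CPM, then 378 and 379 CPM, then 211 and 198 CPM. Mcm3 read 134 and 144 CPM, then 524 and 525 CPM, then 291 and 282 CPM. Neither overlapped between stages. For Mcm4 the levels were 111 and 123 CPM, then 444 and 450 CPM, then 264 and 251 CPM. For Mcm7 they were 153 and 147 CPM, then 600 and 591 CPM, then 381 and 359 CPM. The 6 subunits thus shared 1 order, proB above preB above pre-proB, in every library. Of all genes tested, 24.0% had both proB libraries above the other 4 control libraries. The share with the full order was not counted.

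Across the 9 the rise ran from 1.71 (Mcm6) to 2.33 (Orc1) on the log2 scale, with edgeR adjusted p between 3.65e-08 and 9.59e-07. The fall ran from 0.60 (Cdt1) to 1.21 (Orc1), with adjusted p between 1.37e-05 and 0.000696. Orc1, the origin recognition subunit that is known to vary through the cycle, was the extreme at both steps, at 7.83 and 6.38 CPM, then 34.1 and 35.6 CPM, then 15.5 and 14.5 CPM, and kept 43.1% of its proB level. Cdc6, a loader of the MCM ring, was at 25.7 and 33.9 CPM, then 107 and 117 CPM, then 69.4 and 67.7 CPM. Its partner Cdt1 was at 32.3 and 37.7 CPM, then 131 and 138 CPM, then 88.7 and 87.2 CPM. These loaders kept 61.4% and 65.4% of the proB level, the latter the highest share of the 9. The median licensing gene kept 55.1%, and the whole set lay between 43.1% and 65.4%.

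Of the 8 licensing genes with a promoter window, 6 held the E2F letters (Cdc6, Cdt1, Mcm3, Mcm5, Mcm6, Mcm7) and 1 held TTTGAA (Mcm2). The 150 bases before the starts of Mcm6 (minus strand) and Mcm5 (plus strand) show such letters, again in capitals and together with CCAAT, which reads ATTGG on the other strand.
Mcm6, chr1:128359706-128359855: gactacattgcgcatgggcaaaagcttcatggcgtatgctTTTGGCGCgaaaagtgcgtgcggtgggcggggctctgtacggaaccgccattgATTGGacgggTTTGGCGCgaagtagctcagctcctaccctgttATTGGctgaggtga
Mcm5, chr8:75109359-75109508: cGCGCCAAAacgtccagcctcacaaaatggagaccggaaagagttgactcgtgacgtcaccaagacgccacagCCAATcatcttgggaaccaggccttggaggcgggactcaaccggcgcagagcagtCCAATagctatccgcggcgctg
Mcm6 holds the E2F letters at -110 and -47, and Mcm5 holds them at -149 on the opposite strand.

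The 7 genes of origin firing and the fork followed the licensing genes. Pcna, the sliding clamp, was at 203 and 206 CPM in pre-proB, 790 and 780 CPM in proB and 508 and 516 CPM in preB libraries, with no overlap between stages. Pola1, the catalytic subunit of polymerase alpha, was at 43.7 and 47.5 CPM, then 184 and 194 CPM, then 113 and 106 CPM. Both kept the order proB, preB, pre-proB in every library. Cdc45, which completes the active helicase, was at 27.8 and 29.8 CPM, then 111 and 106 CPM, then 85.8 and 76.3 CPM. Prim1, the small primase subunit, was at 36.1 and 36.4 CPM, then 125 and 118 CPM, then 97.2 and 82.8 CPM. These kept the highest shares of the group in preB, 74.5% for Cdc45 and 73.9% for Prim1. Of the GINS complex, Gins1 was at 10.6 and 10.8 CPM, then 46.2 and 49.8 CPM, then 26.7 and 25.7 CPM. Its partner Gins2 was at 12.2 and 12.3 CPM, then 57.3 and 58.9 CPM, then 29.9 and 32.3 CPM. Pole, the catalytic subunit of polymerase epsilon, was at 49.3 and 57.4 CPM, then 213 and 201 CPM, then 138 and 111 CPM. Gins1 and Gins2 were the least abundant of the 7 in CPM in proB. The 7 rose by 1.78 (Prim1) to 2.28 (Gins2) on the log2 scale and fell by 0.42 (Cdc45) to 0.90 (Gins2), with edgeR adjusted p no higher than 6.87e-07 and 0.00166. They kept between 53.5% and 74.5% of the proB level, with a median of 60.1%.

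After E2f2, the largest rises of the 47 members were those of Cdk1 and Ccnb1, which bring the cell into mitosis. Cdk1, the kinase that starts mitosis, went from 38.5 and 43.3 CPM to 239 and 248 CPM and then to 150 and 144 CPM, rising by 2.61 (SE 0.0758, edgeR adjusted p = 1.8e-08) and falling by 0.73 (SE 0.0689, adjusted p = 5.18e-05). Its partner Ccnb1, cyclin B1, went from 52.7 and 59.6 CPM to 326 and 324 CPM and then to 162 and 145 CPM, and kept 47.2% of its proB level, the lowest of the 15 mitosis members. Plk1, a mitotic kinase, was at 33.9 and 39.1 CPM, then 179 and 181 CPM, then 108 and 96.2 CPM. Aurka, a spindle pole kinase, was at 24.1 and 33.1 CPM, then 108 and 106 CPM, then 73.3 and 66.0 CPM. They rose by 2.33 and 1.94 and fell by 0.81 and 0.61. Ccnb2, cyclin B2, was at 62.6 and 68.6 CPM, then 243 and 236 CPM, then 187 and 160 CPM. It rose by 1.90 and fell by 0.46, a smaller swing than that of Ccnb1.

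Foxm1, the transcription factor of G2 and mitosis genes, was the exception. It went from 117 and 127 CPM in pre-proB to 287 and 269 CPM in proB, a rise of 1.22 (SE 0.116, edgeR adjusted p = 1.73e-05). Its preB libraries, at 283 and 217 CPM, overlapped proB (-0.14, 95% interval -0.40 to 0.11, edgeR adjusted p = 0.297).

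The 9 genes of the spindle, chromosomes and checkpoint included the most abundant members in CPM in proB and preB. Mki67, the coat of mitotic chromosomes and the usual proliferation marker, was at 435 and 470 CPM in pre-proB, 2054 and 1876 CPM in proB and 1606 and 1197 CPM in preB libraries. Top2a, the topoisomerase that untangles chromosomes, was at 408 and 474 CPM, then 1897 and 1888 CPM, then 1475 and 1244 CPM. Both had a wide gap between the 2 preB libraries but no overlap with proB. The 9 rose by 1.75 (Birc5, survivin) to 2.34 (Bub1b, a checkpoint kinase) and fell by 0.38 (Cenpe, a kinetochore motor) to 0.65 (Cdc20), all with an adjusted p of at most 0.0207 in edgeR's test. Bub1b was at 74.0 and 86.7 CPM, then 402 and 394 CPM, then 263 and 240 CPM. Bub1, its partner in the checkpoint, was at 34.7 and 44.5 CPM, then 174 and 173 CPM, then 135 and 115 CPM. In both the stages stood apart. Cdc20, the activator of anaphase, was at 50.1 and 54.5 CPM, then 253 and 240 CPM, then 163 and 149 CPM. Kif11, the motor that separates spindle poles, was at 145 and 169 CPM, then 717 and 673 CPM, then 552 and 463 CPM. Cenpe was at 69.0 and 75.7 CPM, then 253 and 227 CPM, then 208 and 160 CPM. Kif11 and Cenpe had gaps between their preB libraries of the kind seen for Mki67. Of the chromosomal passenger complex, Aurkb was at 53.1 and 58.7 CPM, then 228 and 214 CPM, then 166 and 142 CPM. Birc5 was at 56.0 and 71.2 CPM, then 211 and 207 CPM, then 155 and 138 CPM. All 9 had both proB libraries above both preB libraries and both of these above pre-proB. Both proB libraries lay above the other 4 control libraries in 24.0% of all genes tested, and the share with the full order was not counted. The falls of Mki67 and Cenpe did not pass without proB replicate 1 (-0.42, adjusted p = 0.0696, and -0.31, adjusted p = 0.114).

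**Figure D2:**
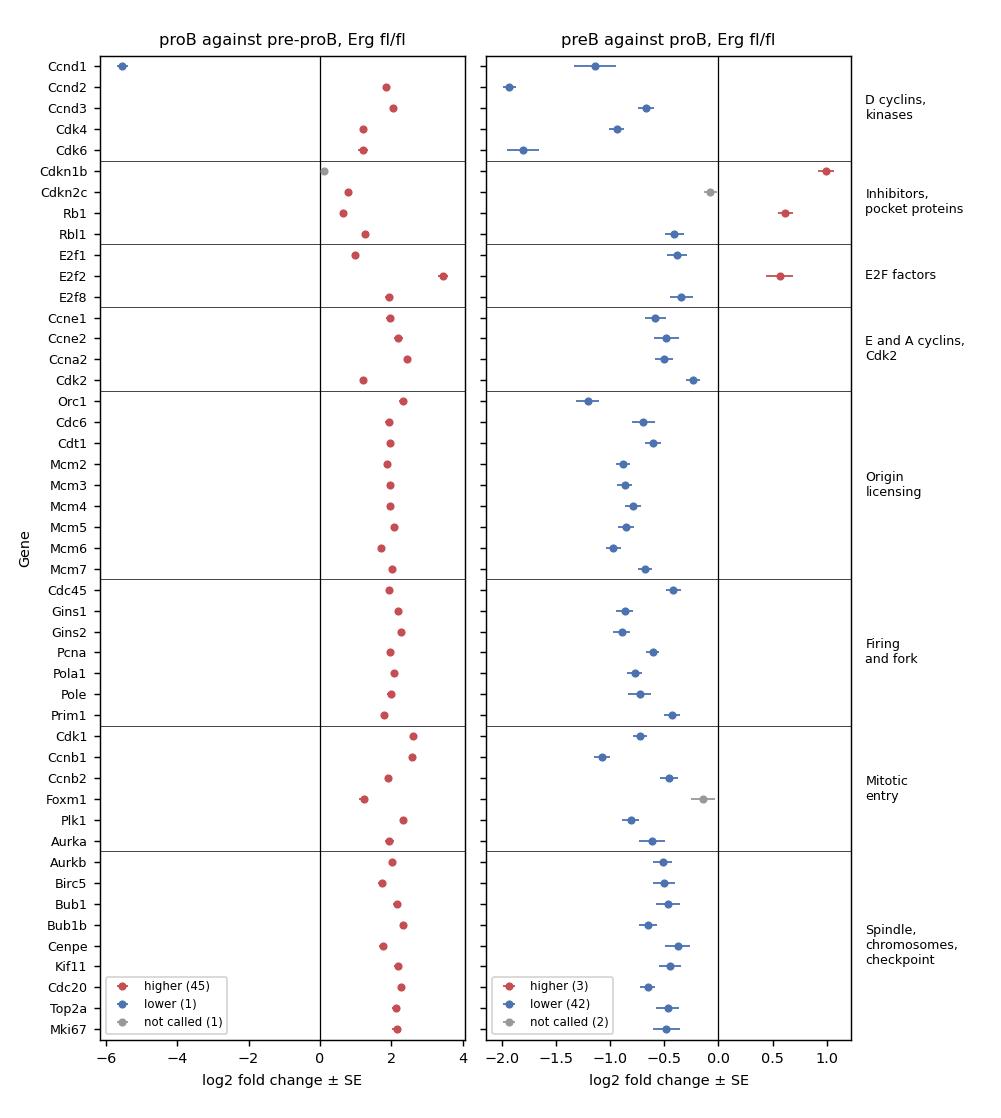
Points give the log2 fold change of each member with its standard error for proB against pre-proB (left) and preB against proB (right), with different x scales, coloured by the edgeR call at an adjusted p below 0.05. Left, 46 members lie right of 0, of which 45 were called, and Ccnd1 lies far left. On the right panel 44 lie left of 0, of which 42 were called, with Cdkn1b, Rb1 and E2f2 to the right.

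Of the 13 mitosis members with a promoter window, 9 held TTTGAA, 12 held CCAAT and 0 held the E2F letters, whereas of the 12 replication members with a window 2 held TTTGAA, 10 held CCAAT and 7 held the E2F letters. The stretches before Cdk1 and Cdc20, both on the minus strand, are shown as mitotic counterparts of the MCM promoters.
Cdk1, chr10:69352913-69353062: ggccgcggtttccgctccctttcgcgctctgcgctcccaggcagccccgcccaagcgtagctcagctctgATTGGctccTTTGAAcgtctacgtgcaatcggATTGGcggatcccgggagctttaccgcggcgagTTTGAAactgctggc
Cdc20, chr4:118437344-118437493: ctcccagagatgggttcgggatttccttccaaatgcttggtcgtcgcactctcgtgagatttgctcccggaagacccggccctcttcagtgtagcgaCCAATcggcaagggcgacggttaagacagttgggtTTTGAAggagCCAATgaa
Cdk1 holds TTTGAA at -71 and -15 and Cdc20 at -18, each near a CCAAT. The E2F counts cover only the 2 forms searched and depend on that choice. The Cdk1 stretch also reads tttcgcgc, a similar run that was not searched for and is not counted.

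Replication and mitosis members were set side by side as medians over genes, and proB levels were 3.84-fold and 4.34-fold those of pre-proB. The 16 replication members (licensing, firing and fork) were at 24.5% and 27.4% of their proB mean in the pre-proB libraries, and the 15 mitosis members at 21.6% and 25.0%. In preB replicate 1 the medians were 59.5% for replication and 75.3% for mitosis, and in preB replicate 2 they were 55.9% and 64.1%. Mitosis was the higher of the 2 in both libraries, with ranges that overlapped (43.1% to 74.5% for replication and 47.2% to 90.0% for mitosis). The preB replicates differed from each other across the members, 39 of 47 being higher in replicate 1 with a median ratio of 1.08 and a highest ratio of 1.34 (Mki67). The difference between the groups of genes was not tested, since genes are not replicates.

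Of 106 further genes of the same pathways, 104 were tested across stages (Cdkn2a and Cdkn2b did not pass the filter). From pre-proB to proB 97 rose and 2 fell, where 36.2% of all genes tested rose and 36.8% fell. From proB to preB 89 fell and 4 rose, where 29.9% of all genes fell and 29.0% rose. For preB against pre-proB, 92 were higher and 3 lower, where 36.5% of all genes were higher and 34.1% lower. The 3 were E2f6 at -0.48, Mcmbp at -0.36 and Orc4 at -0.25 on the log2 scale. Mcm10, a firing factor, rose by 2.27 and fell by 0.80 on the log2 scale, and the clamp loader subunit Rfc4 rose by 2.48, from 18.2 and 17.9 CPM to 96.1 and 101 CPM. Mybl2, which joins Foxm1 at mitotic genes, rose by 2.35 and fell by 0.74, and Ube2c, the ubiquitin enzyme of mitotic exit, rose by 2.20 and fell by 0.76. Against the stream went Rbl2, the pocket protein p130 known from resting cells, which fell by 0.54 (SE 0.0670, edgeR adjusted p = 9.23e-05) and then rose by 0.50 (SE 0.0669, adjusted p = 0.000334), at 111 and 105 CPM, 76.6 and 68.6 CPM and 102 and 101 CPM. Orc4, an origin subunit, likewise fell by 0.49 and then rose by 0.24 (edgeR adjusted p = 0.000385 and 0.0255). Cdkn2d, the p19 inhibitor, and Tfdp2, an E2F partner, rose from proB to preB by 0.43 and 0.31 (edgeR adjusted p = 0.000447 and 0.0482).

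The second question was whether loss of Erg changed these genes in pre-proB cells, the stage sampled in both genotypes. Of the 47 members 1 fell and 0 rose, where 1.16% of the 13005 genes tested were called, 0.946% falling and 0.215% rising (edgeR, 4 pre-proB libraries, adjusted p below 0.05). No member rose at an unadjusted p below 0.05 either, and 0 were called higher by DESeq2 or limma-voom.

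The gene that fell was E2f2, at 60.9 and 44.2 CPM in control and 25.2 and 27.0 CPM in Erg Δ/Δ libraries, without overlap. Its log2 change was -1.02 (SE 0.159, 95% interval -1.40 to -0.64, edgeR adjusted p = 0.0421), and the Erg Δ/Δ mean was 49.7% of control. The call was near the threshold, with adjusted p from 1.11e-05 (DESeq2) to 0.261 (without Erg Δ/Δ replicate 1) over the 15 alternatives and log2 changes from -1.26 to -0.76. The B-lineage marker sum moved with E2f2, being 692 and 238 CPM in the 2 control libraries and 5.75 and 9.04 CPM in the Erg Δ/Δ libraries, and all 5 of its genes fell; their part in the E2f2 difference was not tested.

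The remaining 46 members did not pass the test. Ccnd1, at 703 and 795 CPM in Erg Δ/Δ libraries, overlapped its control values (0.15, 95% interval -0.12 to 0.41), so that it made up 84.0% and 84.9% of summed D cyclin FPKM there. Ccnd2 was at 69.0 and 71.0 CPM (-0.09, interval -0.24 to 0.07). Ccnd3 was at 184 and 198 CPM against 224 and 243 CPM, below control in both libraries (-0.30, interval -0.46 to -0.14), with an adjusted p of 0.113 in edgeR and 0.0179 in DESeq2.

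Among the kinases, Cdk4 was at 150 and 151 CPM (-0.06, interval -0.20 to 0.08) and Cdk6 at 15.0 and 11.6 CPM (-0.28, interval -0.74 to 0.19). The inhibitors and pocket proteins had log2 changes between -0.10 and 0.05. Cdkn1b was at 108 and 110 CPM, Cdkn2c at 37.9 and 47.8 CPM, Rb1 at 102 and 99.9 CPM and Rbl1 at 95.9 and 88.4 CPM, and each of the 4 overlapped its control libraries. Their edgeR adjusted p-values were between 0.717 and 0.967, and their 95% intervals all lay between -0.32 and 0.33. E2f1 (0.05) and E2f8 (-0.27, interval -0.47 to -0.08) also did not pass.

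Small differences ran mostly downward. Of the 47 members 42 had a negative log2 change, where 48.4% of all genes tested had one. The members' median was -0.09 against 0.01 for all genes tested. Without control replicate 1 the members' median was -0.15, and without control replicate 2 it was -0.07. Both Erg Δ/Δ libraries lay below both control libraries for 20 members, where 21.0% of all genes did so, and above both for 0 members, where 23.7% of all genes did. At an unadjusted p below 0.05, 11 members were lower and 0 higher, where 7.60% of all genes were lower and 4.88% higher.

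By role, the 11 were Ccnd3, E2f2, E2f8 and 8 of the 16 replication members (Orc1, Cdt1, Mcm3, Mcm5, Mcm7, Gins1, Pola1, Prim1), and 0 of the 15 mitosis members. All 16 replication members had a negative change (median -0.19, range -0.58 to -0.05), where 48.4% of all genes tested had one. None of the 16 passed the adjusted test in edgeR (adjusted p 0.320 to 0.872). Orc1 was the lowest of them, at 5.12 and 4.45 CPM against 7.83 and 6.38 CPM, on 82 and 69 counts against 122 and 105 (-0.58, interval -1.08 to -0.09, edgeR adjusted p = 0.320). Mcm5 was at 128 and 118 CPM against 132 and 148 CPM (-0.20, interval -0.38 to -0.02), and Pola1 at 41.7 and 37.9 CPM against 43.7 and 47.5 CPM (-0.21, interval -0.40 to -0.02).

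The 15 mitosis members had log2 changes between -0.12 and 0.03 and 95% intervals between -0.39 and 0.30, and the E and A cyclins with Cdk2 lay between -0.30 and 0.03. Mki67 was at 427 and 424 CPM against 435 and 470 CPM, and Cdk1 at 37.4 and 42.5 CPM against 38.5 and 43.3 CPM. As a median over genes, replication members stood at 92.3% and 85.8% of the control mean in the 2 Erg Δ/Δ libraries and mitosis members at 94.8% and 99.4%. The control libraries themselves stood at 96.5% and 104% for replication and 93.9% and 106% for mitosis, and 7 of the 47 members were higher in control replicate 1 than in replicate 2. For replication the 2 groups did not overlap on this measure, and for mitosis they did. The NK-like markers, at 243 and 357 CPM in Erg Δ/Δ against 198 and 200 CPM in control libraries, with 4 of 6 called higher, moved with genotype as well, and their part was not tested. Klrd1, which made up most of these sums, was not called (0.13, edgeR adjusted p = 0.740).

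**Figure D3:**
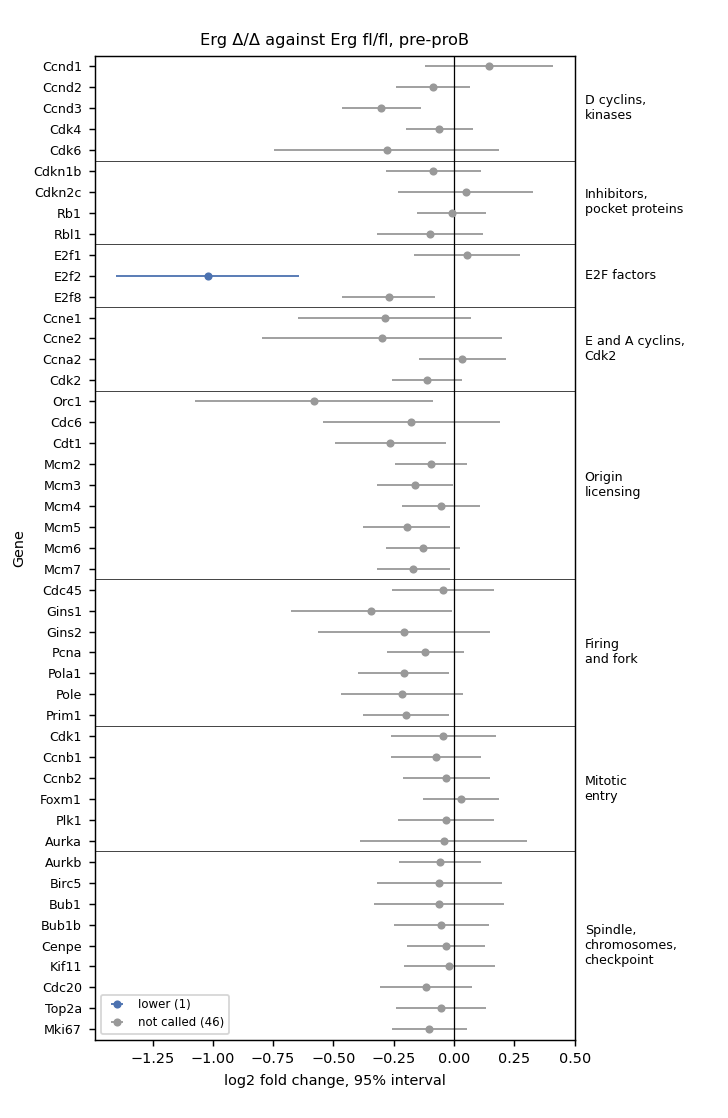
Points give the log2 fold change of each member in Erg Δ/Δ against Erg fl/fl pre-proB cells and bars the 95% interval from the edgeR fit, in functional groups. E2f2 is the single called member, at -1.02; the 16 replication genes all lie left of 0 and the mitosis genes cluster near it.

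Of the 103 further pathway genes tested in this comparison (Cdkn1c, Cdkn2a and Cdkn2b did not pass the filter), 0 were called by edgeR in the 4-library fit or by limma-voom, and 2 by DESeq2, both lower (Cdc25b and Tfdp2). With edgeR, 4 were lower with all 8 libraries in 1 fit (Prim2, Cdc25b, Mybl2, Tfdp2), 3 without control replicate 2 (Prim2, Cdc25b, Tfdp2), and 1 (Cdc25b) with no filter or without control replicate 1. Cdc25b, a phosphatase that activates Cdk1 and is named after its values were seen, had the lowest log2 change of the list, -1.39 (edgeR adjusted p = 0.0741). At an unadjusted p below 0.05 in edgeR's test stood 14 of the 103, or 13.6%, against 12.5% of all genes tested. Their median log2 change was -0.04, and 69.9% were negative, against 48.4% of all genes.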

How the data were processed

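RNA was sequenced as 100 bp paired-end reads from 8 libraries in 4 groups. The authors trimmed adapters with Trim Galore, aligned reads to mm10 with STAR and assigned them to Entrez genes with featureCounts and the annotation built into Rsubread; the submitters' notes also name CASAVA 1.8.2. The authors deposited raw counts per gene, with no normalization. For the STAR version, the strand setting and multi-mapping reads nothing was found (not given in the sources used here). Ccnb1, Ccnd3 and Pcna have annotated pseudogenes, and reads shared with them could move these levels.

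Counts were fitted in R 4.3.3 with edgeR 4.0.16 (TMM, legacy quasi-likelihood test), with genes kept at 0.5 CPM or more in at least 2 libraries of the fit. Stage comparisons came from 1 fit over 6 control libraries (13650 genes) and the genotype comparison used the 4 pre-proB libraries (13005 genes); p-values were adjusted by Benjamini-Hochberg over all genes kept and called below 0.05. The stage comparisons share libraries, and the control pre-proB libraries enter both fits. P-values rest on the spread between libraries within groups, with 2 libraries a group, pooled over the groups of a fit and moderated across genes. Residual degrees of freedom were 3 and 2 in the 2 fits, and prior degrees of freedom 5.36 and 4.72. The sources do not tie libraries to mice, and the control stages may share mice. CPM in the text uses TMM factors over all 8 libraries (0.952 to 1.05). The biological coefficient of variation was 7.42% in the first fit and 9.02% in the second. Intervals are 95% and use the fit's own degrees of freedom. Replicates differed beyond counting noise in every group (chi-square per degree of freedom 3.82 to 8.29), so none was merged. Symbols came from RefSeq for 25275 identifiers. Gene lengths came from GENCODE M21 and promoter windows and gene coordinates from RefSeq GRCm38.p6. Plots used Python 3.11.15 and matplotlib 3.10.9. The scripts were tested on simulated data.

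All 47 members are accounted for. Called members, D cyclins, inhibitors and pocket proteins are described with values or by range within their role, and at most 2 genes of each further pathway list are named per comparison, beside those that went against the list, which were chosen after their values were seen. Marker lists covered B-lineage, early progenitor, proB, preB, NK-like, plasmacytoid dendritic-like, T-like, myeloid-like, erythroid-like and plasma cell-like genes. A sixth B-lineage marker is not reported here and was left out of the sum. The members and lists were chosen with earlier results of these data known. Alternatives were DESeq2 size factors, total counts, no filter, 1 CPM, DESeq2 1.42.0, limma-voom (limma 3.58.1), the edgeR version 4 method, robust fitting, all 8 libraries in 1 fit, a replicate block, leaving out immunoglobulin genes and leaving out each library.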

Additional observations from a re-analysis of the deposited data

How the results depend on the processing

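Across stages, the counts of members called kept within 1.5 times in all alternatives but 1, with 45 rising and 1 falling from pre-proB to proB throughout and between 38 and 42 falling from proB to preB. Members lower in preB than in pre-proB numbered between 1 and 2 when single libraries were left out, 1 of them without preB replicate 2. In the genotype comparison the single member called was lost (0 lower) with total counts, limma-voom, the edgeR version 4 method or robust fitting, and DESeq2 called 2 (E2f2 and Ccnd3). Leaving out single libraries gave 0 to 1, with 0 without either Erg Δ/Δ library. All genes called by genotype, 151 in the fit reported, numbered 279 with no filter, 400 with DESeq2, 41 with limma-voom, 88 with the edgeR version 4 method, 442 with all 8 libraries in 1 fit, and 10 to 401 when single libraries were left out (401 without control replicate 2, 16 and 10 without Erg Δ/Δ replicates 1 and 2). The cause was not tested. With the replicate number as a block 265 genes were called, and E2f2 stood at -1.01 (edgeR adjusted p = 0.0475). The numbers are not tied to mice by the sources, and deviations of same-numbered libraries correlated between -0.04 and 0.15 over genes, so they were not taken as pairs.

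Changes of sign occurred only in differences that did not pass the test. By genotype, Rb1 was 0.0014 with all 8 libraries in 1 fit and -0.037 to 0.0052 without single libraries, Cdkn1b -0.20 to 0.019, Cdkn2c -0.13 to 0.21 and Rbl1 -0.22 to 0.018. From pre-proB to proB, Cdkn1b ranged from -0.014 to 0.14 without single libraries. Cdk4 in preB against pre-proB did not pass without pre-proB replicate 1 (0.18, edgeR adjusted p = 0.0867). Summed D cyclin FPKM, which had no test, differed between proB and pre-proB by -39.3 with exon union lengths and by 36.9 with longest transcripts. Depth was low for Orc1 and Ccne2 in pre-proB and for Ccnd1 in preB libraries.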
